A study of Mus musculus with 2 samples.

Results

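The 10 immediate early genes Fos, Fosb, Jun, Junb, Egr1, Ier2, Ier3, Dusp1, Ccn1 and Atf3 were followed in mouse kidney, out of 22180 genes with a named probe set. A probe set is a group of array probes against 1 transcript. Each of the 10 genes was found by its symbol in the platform annotation and had exactly 1 probe set, and 0 of them also appeared on a probe set that carries several symbols. Kidney RNA came from male mice that were switched from chow to a high-fat diet at the age of 6 weeks and stayed on it for 12 weeks. The Iah1-KO group carried a systemic knockout of Iah1, which encodes an esterase homologous to an isoamyl acetate hydrolase, and the Iah1-WT group was wild type for it. RNA of 3 mice was pooled for each genotype and the pool was hybridised to 1 Affymetrix array, so the comparison rests on 2 arrays without replicates. No test between genotypes was possible and the spread between mice is unknown. The sources used here do not give the strain or the part of Iah1 that was deleted. All mice lived 1 to a cage, and kidneys were taken in the early afternoon, 4 hours after food was removed. The interval between death and freezing of the kidneys is not stated there either.

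Immediate early genes are transcribed without new protein synthesis when growth factors, stress, hormones or mechanical stimuli activate kinases such as those of the MAP kinase cascade. Their promoters carry sites for factors that are already present in the cell, among them the serum response factor SRF and the cyclic AMP response factor CREB. Most of the transcripts are short-lived, because AU-rich elements mark them for decay. Many of the products are transcription factors: FOS and JUN proteins pair through leucine zippers to form the AP-1 factor. In kidney these genes are known for their rapid induction in tubular cells by ischaemia.

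Values are log2 RMA values, a scale on which a difference of 1 is a doubling, and each difference below is the Iah1-KO value minus the Iah1-WT value. As a check of the labels, Iah1 was at 3.60 in the Iah1-KO pool and 9.09 in the Iah1-WT pool. The 10 listed markers of proximal tubule, the main cell type of the kidney, were all above 10 in both pools and differed by a median of 0.02, from -0.14 (Slc5a12) to 0.23 (Slc22a8), with Slc5a2 at 0.11 and Slc22a6 at 0.09. The median difference was -0.00 over all 22180 genes and 0.01 over the 7671 genes with a value of at least 6 in either pool. The scatter of differences was wider for dim genes, so a local robust SD (scaled median absolute deviation over the 500 genes nearest in mean level) is given beside each difference. It describes the scatter over genes on these 2 arrays and not an error between mice.

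None of the 10 genes reached a 1.5-fold difference in either direction, the threshold used for counts. Over all genes 2.42% reached it, and over genes with a value of at least 6 the share was 0.43%. The 10 differences ran from -0.33 (Fosb) to 0.38 (Dusp1), with 6 genes higher and 4 lower in the Iah1-KO pool and a median of 0.10. The median was 0.025 over the 4 members with a value of at least 6, of which 2 were higher, and the mean of all 10 was 0.013. At a threshold of 1.2-fold, 3 of the 10 were counted, Dusp1 as higher and Ccn1 and Fosb as lower, against 21.9% of all genes and 9.13% of genes with a value of at least 6. Dusp1 and Ccn1 were the 2 members whose difference was at least 2 local robust SDs, a bound that 6.81% of all genes passed. A share of 2 or 3 in 10 genes rests on too few genes to be set apart from these backgrounds. In bulk tissue, fewer cells of a type and less RNA per cell cannot be told apart.

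**Figure D1:**
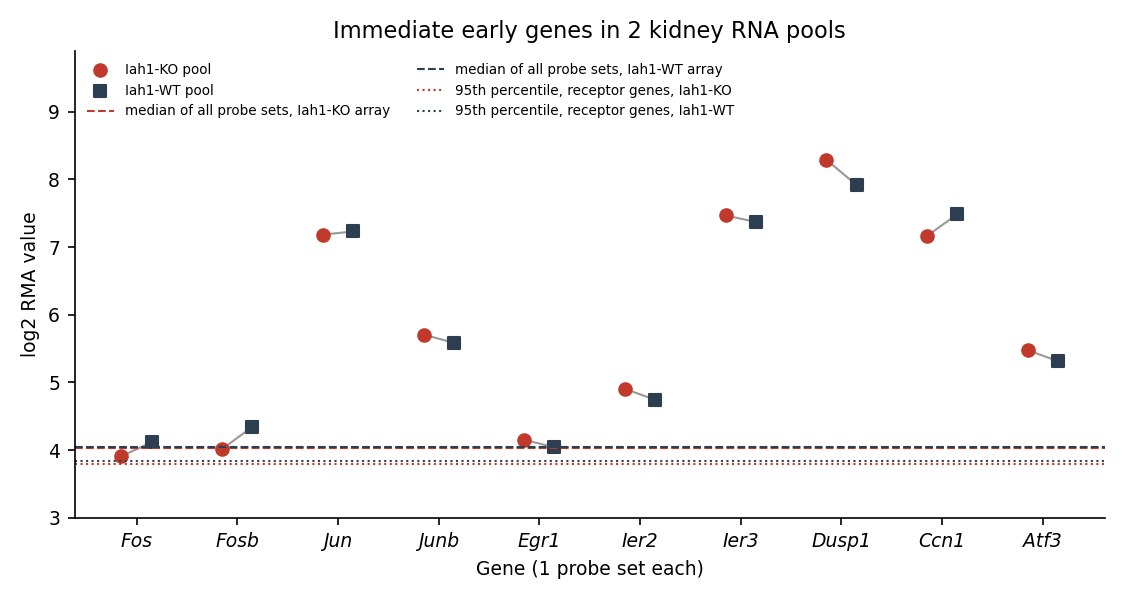
Log2 RMA value (vertical axis) of each immediate early gene in the Iah1-KO pool (circle) and the Iah1-WT pool (square), 1 array each, with the median of all probe sets of each array (dashed) and the 95th percentile of olfactory and vomeronasal receptor genes (dotted). Fos, Fosb and Egr1 lie close to the lines, and Dusp1 and Ccn1 show the widest gaps among the 4 members above 6.

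How firmly a value can be read depends on whether the transcript is above background. The 1390 olfactory and vomeronasal receptor genes on the array, most of which are silent in kidney, had a 95th percentile of 3.79 in the Iah1-KO pool and 3.84 in the Iah1-WT pool. All 10 members exceeded it on both arrays, but Fos, Fosb and Egr1 exceeded it by little. Each of these 3 was dimmer than the array's median probe set (4.03 for Iah1-KO and 4.05 for Iah1-WT) on 1 of the 2 arrays and are not shown to be above background. Jun, Ier3, Dusp1 and Ccn1 were above 6 in both pools, and Junb, Atf3 and Ier2 lay between. Probe sets differ in how strongly their probes bind, so the levels of different genes were not ranked against each other.

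The 2 members with differences beyond the local scatter went in opposite directions. Their promoters are shown with the letters that match motifs searched for here, and binding was not measured. Sequences are those of RefSeq on GRCm38.p6, 250 bases before to 50 after the annotated start. Capitals mark letters that match a searched motif on either strand. The Dusp1 promoter lies at chr17:26508423-26508722, minus strand, and the Ccn1 promoter at chr3:145649936-145650235, minus strand.
Dusp1 promoter: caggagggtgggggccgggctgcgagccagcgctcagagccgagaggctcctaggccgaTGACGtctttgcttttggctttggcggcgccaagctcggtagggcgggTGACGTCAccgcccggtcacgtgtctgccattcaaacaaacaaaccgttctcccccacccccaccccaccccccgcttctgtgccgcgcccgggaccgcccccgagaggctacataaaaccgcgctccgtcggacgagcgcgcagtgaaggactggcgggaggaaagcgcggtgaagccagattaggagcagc
Ccn1 promoter: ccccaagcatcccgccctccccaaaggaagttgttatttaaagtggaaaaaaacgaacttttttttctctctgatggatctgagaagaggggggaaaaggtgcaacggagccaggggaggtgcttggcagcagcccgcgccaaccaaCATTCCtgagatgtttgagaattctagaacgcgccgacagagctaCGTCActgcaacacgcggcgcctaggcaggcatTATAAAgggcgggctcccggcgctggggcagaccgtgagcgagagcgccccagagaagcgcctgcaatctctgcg

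Dusp1 encodes a nuclear phosphatase that switches off the MAP kinases p38, JNK and ERK. It was at 8.29 in the Iah1-KO pool and 7.92 in the Iah1-WT pool, a difference of 0.38 or 1.30-fold. This was 3.59 local robust SDs (local SD 0.10), and 3.21% of the 7671 genes with a value of at least 6 differed by at least as much. The Dusp1 promoter was the only one of the 8 member promoters examined with a complete cyclic AMP response element (CRE, letters TGACGTCA). It begins 143 bases before the start, and another match to the CRE core TGACG begins 191 bases before the start.

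Of the other 9 listed phosphatases of the same family, 6 were higher and 3 lower in the Iah1-KO pool, 0 passed 1.5-fold and the median difference was 0.03. Over the 4 with a value of at least 6, of which 3 were higher, it was 0.11. Dusp7, which acts on ERK, was at 6.76 in the Iah1-KO pool and 6.48 in the Iah1-WT pool, a difference of 0.27. Dusp4, a nuclear phosphatase like DUSP1, differed by 0.20, Dusp6, a cytoplasmic phosphatase of ERK, by -0.07 and Dusp16 by 0.02. None of these 4 reached 2 local robust SDs. Dusp1 is also induced by glucocorticoids, as are the clock gene Per1 and the kinase gene Sgk1. Per1 was at 7.54 in the Iah1-KO pool and 7.67 in the Iah1-WT pool, and Sgk1 at 6.92 in the Iah1-KO pool and 6.87 in the Iah1-WT pool. No list of glucocorticoid-induced genes was made here, and the part of glucocorticoids in these values was not tested.

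Ccn1, formerly Cyr61, encodes a secreted matrix protein that binds integrins. It was at 7.16 in the Iah1-KO pool and 7.49 in the Iah1-WT pool, 1.25-fold lower, with a difference of -0.32. This was -2.29 local robust SDs (local SD 0.14), and 4.97% of genes with a value of at least 6 differed by at least as much in either direction. In its promoter a TEAD site (letters CATTCC) begins 103 bases before the start, a CRE core on the opposite strand 58 bases before it and a TATA box (letters TATAAA) 25 bases before it. TEAD factors bind such sites together with the coactivators YAP and TAZ, and Ccn1 and its relative Ccn2 are textbook targets of them.

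The list of other CCN genes, YAP, TAZ, TEAD factors and their targets had 5 genes higher and 12 lower in the Iah1-KO pool, with 0 beyond 1.5-fold. Its median difference was -0.17 over 17 genes, but -0.04 over the 9 with a value of at least 6. Ccn2 did not share the difference of Ccn1, at 7.54 in the Iah1-KO pool and 7.48 in the Iah1-WT pool in its brighter probe set. The dimmer probe set of Ccn2, at 3.43 in the Iah1-KO pool and 3.70 in the Iah1-WT pool, lay below both array medians. Tead1, which encodes one of the DNA-binding partners, was at 7.19 in the Iah1-KO pool and 7.47 in the Iah1-WT pool, a difference of -0.28 or -1.96 local robust SDs. Amotl1, a scaffold that binds YAP, differed by -0.26, Vgll4, a competitor of YAP for TEAD, by -0.17 and the kinase gene Lats2 by 0.07. Yap1 itself was at 7.86 in the Iah1-KO pool and 7.82 in the Iah1-WT pool. Ankrd1, a listed target named after its values were seen, was furthest from 0, at 3.74 in the Iah1-KO pool and 4.32 in the Iah1-WT pool. Its difference of -0.58 was -2.28 local robust SDs, the only 1 of the 17 beyond 2, against 6.81% of all genes. In the Iah1-KO pool Ankrd1 lay below the 95th percentile of the receptor genes, so it is not shown to be above background there.

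Endothelial and stromal cells also express Ccn1 and Dusp1, and markers of both were set beside them. Of 10 endothelial markers 9 had the higher value in the Iah1-KO pool, with a median difference of 0.10 and a summed linear signal of 2626 in the Iah1-KO pool and 2477 in the Iah1-WT pool. Cdh5, the cadherin of endothelial junctions, was the furthest at 0.24, followed by Ehd3 at 0.21, Ptprb at 0.17 and Flt1 at 0.16. Of 10 fibroblast, mesangial and smooth muscle markers 4 were higher and 6 lower, with a median of -0.01 (Tagln -0.29, Myh11 0.17, Acta2 0.15, Dcn -0.12) and a summed linear signal of 1232 in the Iah1-KO pool and 1227 in the Iah1-WT pool. The part of these cells in the values of Dusp1 and Ccn1 was not tested.

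**Figure D2:**
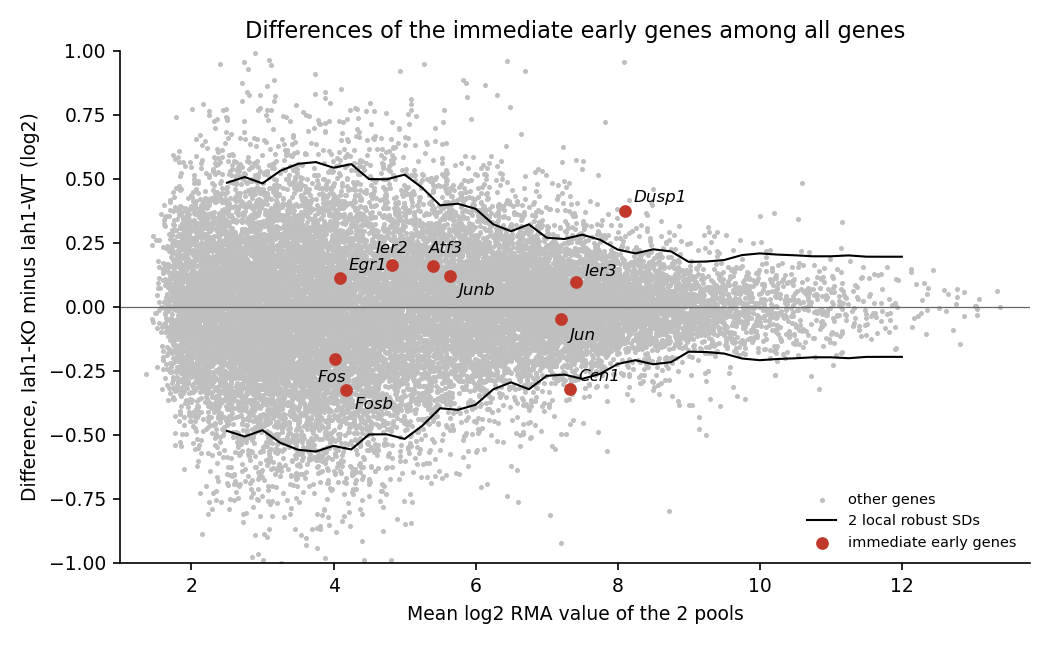
Difference (Iah1-KO minus Iah1-WT, log2) against the mean log2 value of the 2 pools for all genes (grey) and the 10 immediate early genes (red, labelled), with lines at 2 local robust SDs on either side of 0; 40 genes lie beyond the vertical axis. Dusp1 lies above the upper line and Ccn1 below the lower one, and the other 8 members lie between the lines.

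The FOS proteins bind DNA only as partners of JUN proteins, and the promoters of their genes are shown for comparison with those above. The Fos promoter lies at chr12:85473640-85473939, plus strand, and the Fosb promoter at chr7:19309996-19310295, minus strand. Capitals again mark matches.
Fos promoter: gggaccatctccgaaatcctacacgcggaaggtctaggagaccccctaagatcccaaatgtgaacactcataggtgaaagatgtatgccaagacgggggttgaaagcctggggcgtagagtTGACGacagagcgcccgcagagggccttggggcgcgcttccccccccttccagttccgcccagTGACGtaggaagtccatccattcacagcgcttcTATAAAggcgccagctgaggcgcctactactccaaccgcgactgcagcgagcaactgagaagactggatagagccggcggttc
Fosb promoter: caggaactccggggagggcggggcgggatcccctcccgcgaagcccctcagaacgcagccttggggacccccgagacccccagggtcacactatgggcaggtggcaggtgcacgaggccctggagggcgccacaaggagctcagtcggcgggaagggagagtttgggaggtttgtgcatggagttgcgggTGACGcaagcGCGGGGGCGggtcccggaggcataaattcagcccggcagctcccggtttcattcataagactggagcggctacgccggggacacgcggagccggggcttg

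Fos was at 3.91 in the Iah1-KO pool and 4.12 in the Iah1-WT pool, a difference of -0.21 or -0.80 local robust SDs. Fosb was at 4.02 in the Iah1-KO pool and 4.34 in the Iah1-WT pool, a difference of -0.33 or -1.15 local robust SDs. Both were therefore lower in the Iah1-KO pool by amounts that are common among genes this dim, and neither is shown to be above background. The Fos promoter holds a TATA box 33 bases before the start and CRE cores at 66 and 129 bases before it. The Fosb promoter holds a CRE core 60 bases before the start and an EGR site (letters GCGGGGGCG) 50 bases before it.

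The JUN genes, whose proteins can pair with each other as well as with FOS, were measured at higher signal. Jun was at 7.18 in the Iah1-KO pool and 7.23 in the Iah1-WT pool, a difference of -0.05 with a local SD of 0.13. Junb, which encodes a weaker activator than JUN, was at 5.71 in the Iah1-KO pool and 5.59 in the Iah1-WT pool, a difference of 0.12 with a local SD of 0.18. Atf3, a stress-induced member of the same leucine zipper class that can repress transcription as a homodimer, was at 5.48 in the Iah1-KO pool and 5.32 in the Iah1-WT pool. Its difference of 0.16 was 0.75 local robust SDs. None of the 5 AP-1 and ATF members thus lay beyond 2 local robust SDs, with 3 lower and 2 higher in the Iah1-KO pool.

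Of 13 measured genes for other AP-1 proteins and leucine zipper partners, 8 were higher and 5 lower, 0 passed 1.5-fold and the median difference was 0.05. Mafk, a small MAF protein without an activation domain, was the furthest of those with a value of at least 6, at 6.74 in the Iah1-KO pool and 6.45 in the Iah1-WT pool. Its relative Mafg differed by -0.17. Atf2, a partner of JUN that is activated by JNK and p38, differed by 0.15 and its close relative Atf7 by 0.13. Atf4, the stress response factor that acts upstream of Atf3, was at 7.04 in the Iah1-KO pool and 6.95 in the Iah1-WT pool.

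Egr1 encodes a zinc finger factor induced through SRF and its ETS partners. It was at 4.15 in the Iah1-KO pool and 4.04 in the Iah1-WT pool, and its difference of 0.11 was 0.42 local robust SDs. Of the 8 other EGR, NAB and NR4A genes, 7 were lower and 1 higher in the Iah1-KO pool, with a median of -0.14, a range from -0.28 to 0.04 and 0 beyond 1.5-fold. Only the corepressor genes of EGR factors had a value of at least 6: Nab2 differed by -0.18 and Nab1 by -0.14. A second, dimmer probe set of Nab2 went the other way, at 4.76 in the Iah1-KO pool and 4.57 in the Iah1-WT pool. The EGR and NR4A genes themselves, the inducible part of this list, were all below 6.

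Ier2 encodes a small nuclear protein induced by growth factors. It was at 4.90 in the Iah1-KO pool and 4.74 in the Iah1-WT pool, a difference of 0.16 or 0.66 local robust SDs. Ier3, also called IEX-1, encodes a regulator of cell survival and ERK signalling. It was at 7.47 in the Iah1-KO pool and 7.37 in the Iah1-WT pool, a difference of 0.10 or 0.67 local robust SDs. Both differences lay within the scatter of genes of like level.

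The wider group of 38 measured early response genes was split, with 18 higher and 20 lower in the Iah1-KO pool, 0 beyond 1.5-fold and a median of -0.01. Over all 22180 genes 10934 were higher and 11192 lower. Plk3, a stress-responsive kinase gene, was at 6.52 in the Iah1-KO pool and 6.07 in the Iah1-WT pool, a difference of 0.45 or 2.74 local robust SDs. Id3, an inhibitor of helix-loop-helix factors, was at 6.53 in the Iah1-KO pool and 6.92 in the Iah1-WT pool, a difference of -0.39 or -2.37 local robust SDs. These were the only 2 of the 38 beyond 2 local robust SDs, a bound that 6.81% of all genes passed, and they went in opposite directions. Btg1, an antiproliferative gene, differed by 0.32.

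**Figure D3:**
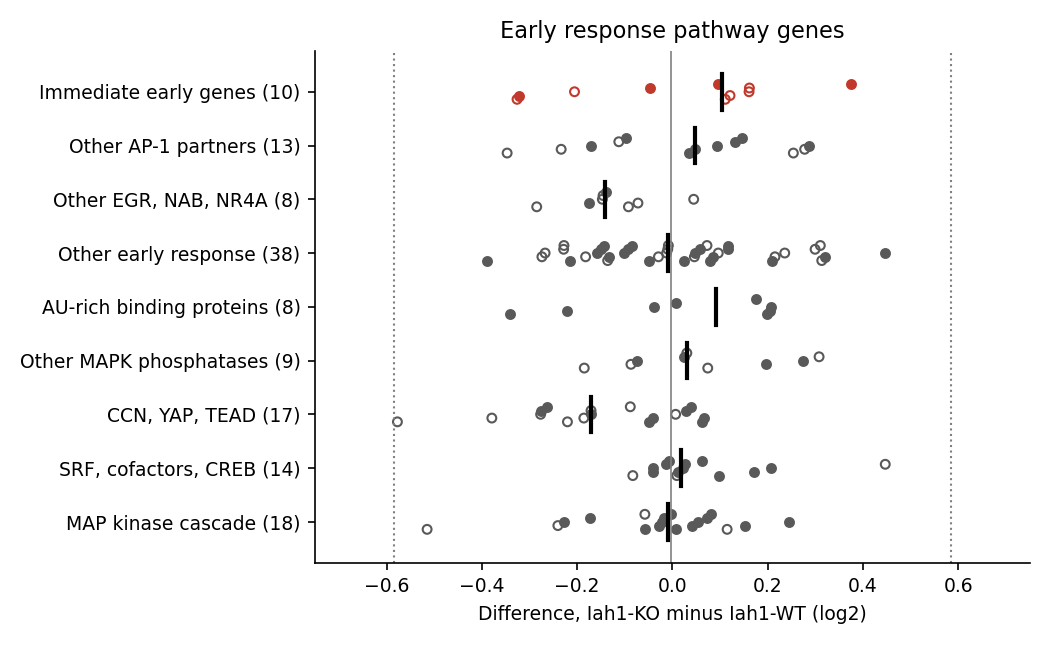
Difference (Iah1-KO minus Iah1-WT, log2) of every measured gene of the immediate early genes (red) and of 8 related lists (grey), with the number of genes in brackets; filled points had a value of at least 6 in either pool, open points did not, thick bars are medians and dotted lines mark 1.5-fold. All points lie inside the dotted lines, and the medians lie between -0.17 and 0.10.

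Genes upstream of the members were in 2 lists. Of 14 measured genes for SRF, its cofactors and the CREB factors, 9 were higher and 5 lower, with a median of 0.02 and 0 beyond 1.5-fold. Srf was at 6.61 in the Iah1-KO pool and 6.62 in the Iah1-WT pool. Creb1 was at 7.63 in the Iah1-KO pool and 7.46 in the Iah1-WT pool, a difference of 0.17, and the CREB coactivator genes Crtc1 and Crtc3 differed by 0.21 and 0.06. Mrtfb, an actin-sensing cofactor of SRF, differed by 0.10 in its brighter probe set and by -0.22 in its dimmer one. The paralog Mrtfa, named after its values were seen, was below 6 at 5.85 in the Iah1-KO pool and 5.40 in the Iah1-WT pool. Its difference of 0.45 was the only 1 of the 14 beyond 2 local robust SDs, against 6.81% of all genes. Of the MAP kinase cascade 18 of 27 listed genes were measured, and the other 9 were not analysed here. They had a median of -0.01, with 8 higher and 10 lower and 0 beyond 1.5-fold. Mapk13, a p38 isoform, differed by 0.24, Mapk8, which encodes JNK1, by -0.23, the ribosomal S6 kinase gene Rps6ka3 by -0.17 and the growth factor receptor gene Egfr by 0.15. Mapk10, which encodes JNK3 and was named after its values were seen, was furthest from 0 in this list, at 4.11 in the Iah1-KO pool and 4.62 in the Iah1-WT pool, within 2 local robust SDs of dim genes.

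Proteins that bind AU-rich elements set how long early response transcripts last, and all 8 listed genes had a value of at least 6. In the Iah1-KO pool 5 were higher and 3 lower, with a median of 0.09 and 0 beyond 1.5-fold. Hnrnpd, which encodes the decay factor AUF1, was at 8.41 in the Iah1-KO pool and 8.75 in the Iah1-WT pool in its brighter probe set. The difference of -0.34 was -3.08 local robust SDs, while the dimmer probe set differed by 0.04. Zfp36, which encodes the decay factor tristetraprolin and is itself an early response gene, was at 6.85 in the Iah1-KO pool and 7.08 in the Iah1-WT pool, a difference of -0.22. The decay factor gene Khsrp and Tia1, which encodes a stress granule protein, differed by 0.21 and 0.20.

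Searched over both strands, the CRE core was the motif found in most member promoters, in 6 of 8 (Fos, Fosb, Junb, Dusp1, Ccn1 and Atf3) against 20.8% of the 32851 RefSeq promoters of the same length. The complete CRE, which contains the core on both strands, was in 1 of 8 against 1.79%. A TATA box was in 3 of 8 (Fos, Junb and Ccn1) against 13.6%, the EGR site in 1 against 2.91% and the TEAD site in 1 against 14.7%. The TATA match of Junb begins at the annotated start itself, while those of Fos and Ccn1 begin 33 and 25 bases before it. The CArG box bound by SRF was in 0 of 8 against 1.63%, and the AP-1 site (letters TGANTCA) in 0 of 8 against 7.81%. The promoters of Egr1 and Ier2 were not among the 8, so these counts say nothing of their sites. The Jun and Ier3 promoters matched none of the 7 motifs. Member promoters had a median GC content of 62.4% against 52.7% over all promoters, and the part of base composition in these counts was not tested. Promoters with a CRE core belonged to genes on both sides of 0, Fos, Fosb and Ccn1 being lower and Junb, Dusp1 and Atf3 higher in the Iah1-KO pool. A match is a run of letters, not a shown binding site, and sites outside this window were not searched.

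**Figure D4:**
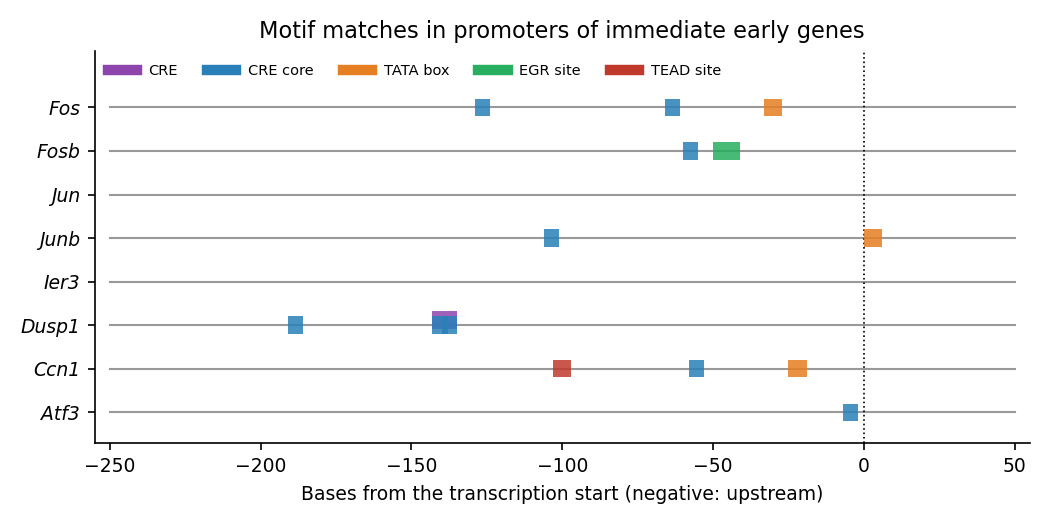
Position of motif matches on either strand in 8 promoters of immediate early genes, in bases from the annotated transcription start. CRE cores lie in 6 promoters, Dusp1 holds the complete CRE, and the lines of Jun and Ier3 carry no match.

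Markers of immune cells and of tubular injury, settings in which immediate early genes are known to be induced, were mixed. Of 11 macrophage markers 6 were higher and 5 lower in the Iah1-KO pool, with a median of 0.03, and 1 gene passed 1.5-fold in each direction. The median was 0.26 over the 4 with a value of at least 6, of which 3 were higher. The summed linear signal was 756 in the Iah1-KO pool and 701 in the Iah1-WT pool. Lyz2, the lysozyme gene of myeloid cells, was at 6.74 in the Iah1-KO pool and 6.11 in the Iah1-WT pool. Cx3cr1 differed by 0.41, Csf1r by 0.11 and C1qb by -0.01. The gene past 1.5-fold in the other direction was Adgre1, which encodes a surface antigen of mouse macrophages, named after its values were seen, at 4.37 in the Iah1-KO pool and 5.10 in the Iah1-WT pool.

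Of 8 measured markers of injured tubule 5 were higher and 3 lower, 1 was lower by more than 1.5-fold, and the median was 0.06, with a summed linear signal of 868 in the Iah1-KO pool and 850 in the Iah1-WT pool. Vcam1, Clu and Krt8, the 3 with a value of at least 6, differed by 0.16, 0.09 and 0.02. Among the dimmer ones, named after their values were seen, Lcn2 was the gene past 1.5-fold, at 4.87 in the Iah1-KO pool and 5.49 in the Iah1-WT pool. Sox9 differed by -0.43, Krt20 by 0.40 and Havcr1 by 0.47. Krt20 was at 3.26 in the Iah1-KO pool and 2.86 in the Iah1-WT pool, and Havcr1 at 3.47 in the Iah1-KO pool and 2.99 in the Iah1-WT pool. Both genes lay below the 95th percentile of the receptor genes in both pools and are not shown to be above background. The 8 loop, distal tubule and collecting duct markers gave a median of 0.02, with 1 beyond 1.5-fold, Atp6v1g3 of the intercalated cell proton pump at -0.81, followed by the water channel gene Aqp2 at 0.49, Slc4a1 at 0.18 and Calb1 at -0.14. The 4 measured podocyte markers gave a median of 0.06, with 3 higher and 1 lower in the Iah1-KO pool (Podxl 0.10, Wt1 0.02). The other podocyte markers, below 6 and named after their values were seen, were Nphs1 at 0.31 and Synpo at -0.15. The 6 measured adipocyte markers gave a median of -0.09, and of them Fabp4 alone had a value of at least 6 and differed by -0.07. The leptin gene Lep and the lipid droplet gene Cidec, named after their values were seen, were the 2 adipocyte markers past 1.5-fold, with differences of -0.65 and -0.64 at values under 5 in both pools. The part of any of these cell types in the members' values was not tested.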

How the data were processed

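Kidney RNA of 2 pools (Iah1-KO and Iah1-WT, 3 mice each, per the series description) was hybridised to 1 array each. Per the submitters' processing notes, the authors used RMA and Affymetrix Expression Console 1.3.0, and the deposited values are on a log2 scale. RMA subtracts background, quantile-normalizes and summarises probes, so a shift of most transcripts would not be seen and dim probe sets differ by less than their transcripts do. Gene symbols came from GEO's platform annotation: of 41345 probe sets 23521 had 1 symbol, 1814 several and 16010 none. The brightest probe set stood for a gene with several. No floor was applied to the members. Chromosome positions of promoters are RefSeq's on GRCm38.p6; the sources used here do not name the array's build. Promoters matched 8 of the 10 members, all but Egr1 and Ier2, and protein sequences were not used here.

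The members and all lists were chosen with earlier results of these data known. Of 208 entries in 16 other lists, 192 matched a measured gene. Named are every member, Iah1, and up to 4 genes per list with the largest difference among those of at least 6 on the log2 scale; Per1, Sgk1, Atf4, Ccn2, Yap1 and Srf were added as close relations of members, and Adgre1, Mrtfa, Mapk10, Lcn2, Sox9, Krt20, Havcr1, Lep and Cidec after their values were seen; 1 gene of the rule is not reported here. With 2 arrays, no likeness of expression patterns was computed. Counts used 1.5-fold, with 1.2-fold, 2-fold and 2 local robust SDs, the mean over probe sets, centring, a lowess curve (span 0.3), floors and given-strand motifs as alternatives. The number of arrays limits the precision. Local SDs, lowess and motif counts were tested on simulated data. Python 3.11.15, numpy 2.4.6, pandas 2.3.3 and statsmodels 0.14.6 were used.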

Additional observations from a re-analysis of the deposited data

How the results depend on the processing

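With 1 array per genotype the values have no replicate check, and dim members (Fos, Fosb, Egr1) are limited by signal over background. No paired analysis was possible because each genotype has 1 array. The mean over probe sets could not change the differences of the 10 members, because each had 1 probe set. Centring subtracted 0.0085 from every difference, too little to change a sign. With lowess the 10 differences kept their sign and moved by less than a local robust SD. The count of members past 1.5-fold, 0, was also 0 with centring, with lowess and at 2-fold. It was 3 at 1.2-fold and 2 at 2 local robust SDs. The members' median, 0.10, was 0.025 with a floor of 6 and 0.013 as a mean. Without Fos, Fosb and Egr1, an alternative chosen after seeing the data, it was 0.12. With a floor of 6, medians moved to 0.11 for the other phosphatases, -0.040 for the CCN and YAP list and 0.26 for macrophage markers. Among 64 alternative medians of the 16 lists, 2 near 0 changed sign. A floor leaves fewer genes in a list. On the given strand only, the CRE core was in 4 of 8 member promoters, against 12.4% of all promoters.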
